A study of Mus musculus with 14 samples.

Results

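Ocy454 cells were divided by the amount of CD61 on their surface, and the RNA of the brightest and the dimmest cells was sequenced. Of the 14 libraries of the study, 6 came from this sort, 3 labelled CD61high and 3 labelled CD61low. Ocy454 is a mouse cell line with osteocyte-like features, conditionally immortalized by a thermosensitive large T antigen, grown to confluence at 33 °C and then held at 37 °C. On day 17 by the labels (the study's own text is not uniform on the day), live cells that excluded the dye DAPI were gated on the signal of a CD61 antibody, and the top 10% and the bottom 10% were collected. Both groups therefore shared the line, the medium, the temperature shift, the day and the sorter, and differed by label only in the gate. The other 8 libraries were unsorted cells of the same line on days 1, 7, 10 and 14 at 37 °C, with 2 libraries a day, and they enter below only where the genes of the sort were followed in time. The model is a single line in culture, and the cells between the gates were not analysed here. The methods describe 3 independent groups of cells, from which both gates were collected, so p-values measure the spread between these groups. Whether libraries numbered alike in the CD61high and CD61low arms came from the same group is not stated.

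CD61 is integrin beta 3, encoded by Itgb3. Integrins are heterodimers of an alpha and a beta chain that join the matrix outside the cell to actin inside it. In skeletal cells beta 3 pairs with the alpha V chain, and alpha V beta 3 binds an Arg-Gly-Asp motif found in osteopontin, bone sialoprotein, Dmp1, fibronectin and other matrix proteins. Osteocytes arise from osteoblasts that become enclosed in the matrix they lay down. The transcription factors Runx2 and Sp7 drive the osteoblast stage, which makes type I collagen and alkaline phosphatase, and genes such as Dmp1, Phex and Sost mark osteocytes.

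The libraries held 18815602 to 19220064 estimated reads, of which over 99.3% were matched to genes, and between 14382 and 14705 genes had a count in CD61high libraries against 14958 to 15426 in CD61low libraries. Mitochondrially encoded genes took 3.72 to 4.27% of CD61high and 4.26 to 4.46% of CD61low reads. The scaling factors also separated the arms, at 0.895 to 0.909 in CD61high and 1.10 to 1.13 in CD61low libraries, and scaling by library size alone moved the median difference of all genes to -0.29 on the log2 scale. Below, levels are in CPM, reads relative to the library total multiplied by its scaling factor, and differences are Log2FC, the log2 ratio of CD61high to CD61low, as mean ± SD or with a standard error (SE) over 3 libraries a group.

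In all, 12077 genes had enough reads to test, and their median Log2FC was 0.0035. With a Log2FC beyond 1 in either direction and an adjusted p under 0.01 (edgeR, Benjamini-Hochberg), 585 genes (4.84%) were higher and 528 (4.37%) lower in CD61high cells, 9.22% in either direction. Every CD61high library lay on 1 side of every CD61low library for all 1113 of these genes. That is a weak criterion here, since the groups did not overlap for 58% of the genes tested. Differences beyond 4-fold were found for 62 higher and 137 lower genes. A gene is called below when it passed both thresholds. Because the RNA is from bulk cells, fewer cells of a kind and less RNA per cell cannot be told apart in any of these values.

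**Figure D1:**
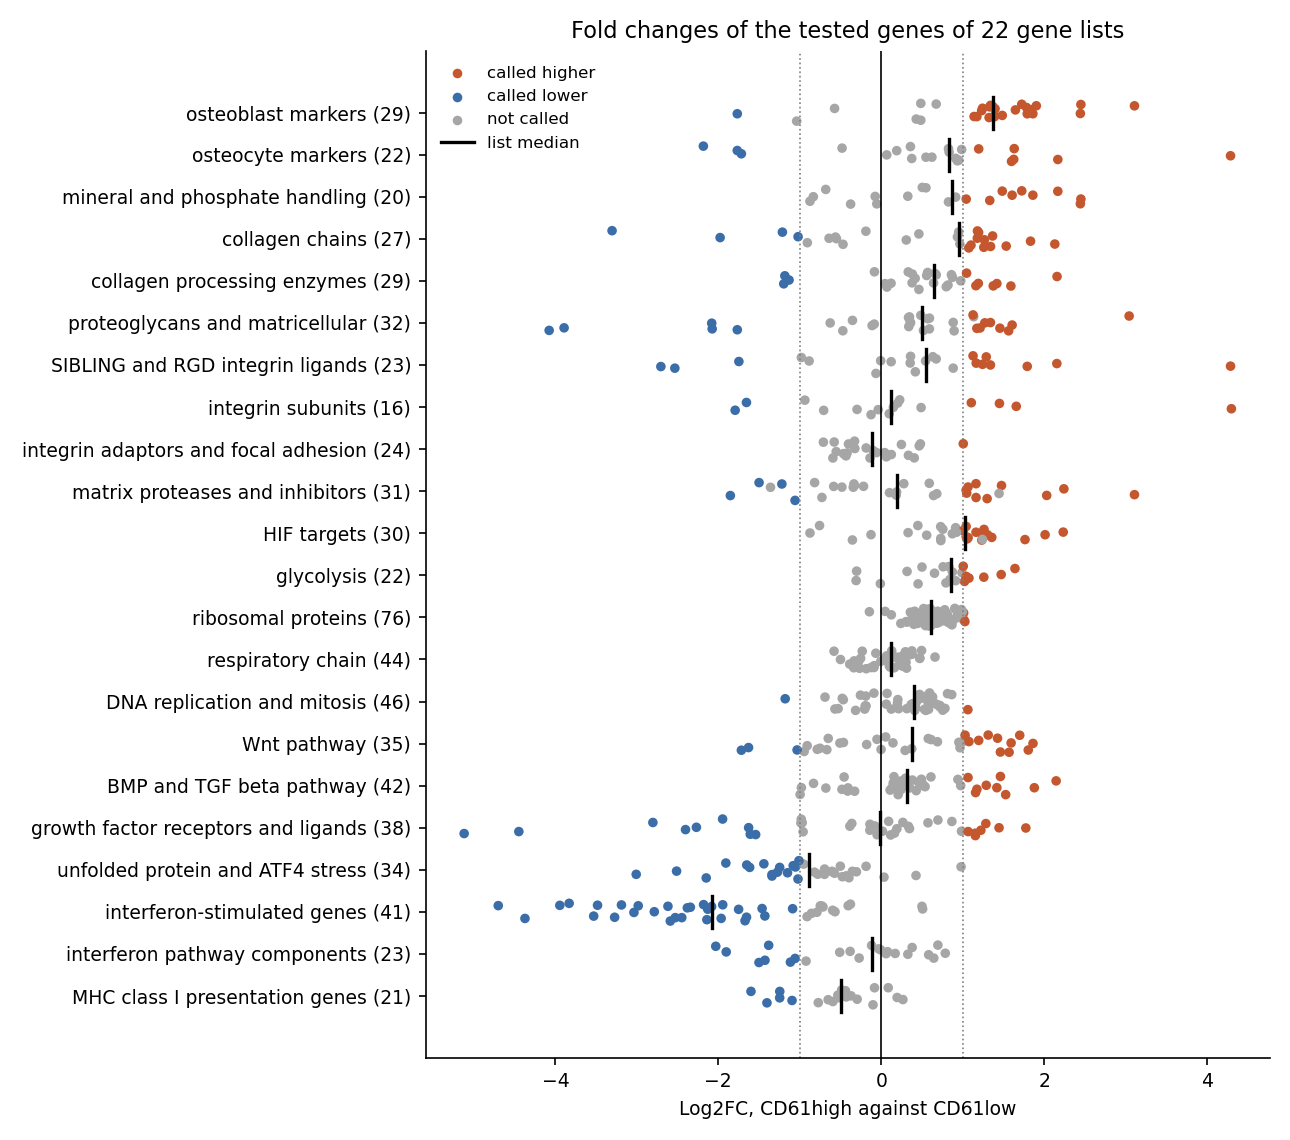
Log2FC of the tested members of 22 gene lists, 1 point a gene, with CD61high over CD61low on the horizontal axis, called genes coloured, the list median as a black tick and dotted lines at -1 and 1. Osteoblast markers, collagen chains and HIF targets lie mostly to the right, and interferon-stimulated and unfolded protein genes to the left.

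Itgb3 (chr11:104498826-104561302, plus strand, GRCm39) checked the gate. It was at 5.31, 5.54 and 6.10 CPM in the CD61low libraries and at 130.1, 100.1 and 103.6 CPM in the CD61high libraries, a Log2FC of 4.30 (SE 0.13, adjusted p = 3.3e-08). The sorted protein's own transcript thus differed 19.7-fold between the gates, with wide separation of the groups. Dmp1, a secreted phosphoprotein of the mineralizing matrix and the marker with a change of like size, stood at 0.574, 0.328 and 0.879 CPM in CD61low and at 16.2, 8.87 and 9.94 CPM in CD61high cells (4.29, SE 0.34, adjusted p = 4.8e-06). Its level was low in either arm, so that in CD61low cells it rested on few reads. Sp7, the osteoblast transcription factor, was at 253, 220.3 and 298 CPM against 787, 814 and 817 CPM (1.65, SE 0.10, adjusted p = 1.0e-06). Pth1r, the receptor of parathyroid hormone, was at 297, 246 and 290.0 CPM against 996, 1056 and 1065 CPM (1.90, SE 0.09, adjusted p = 2.6e-07). All 4 markers were higher in each CD61high library than in any CD61low library, with the wider gaps in Itgb3 and Dmp1.

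**Figure D2:**
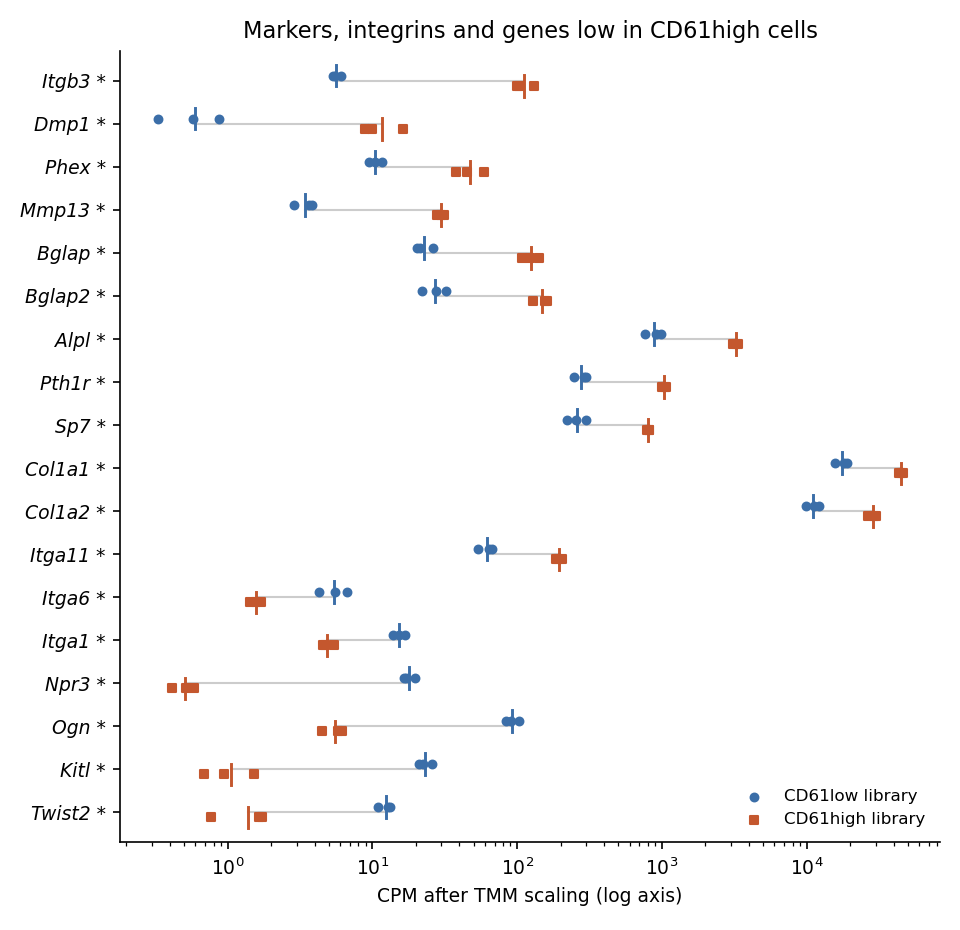
Level of 18 genes in each library, in scaled CPM on a log axis, with CD61low and CD61high libraries in separate colours, vertical ticks at the group means and an asterisk at called genes. All 18 are called and no gene's groups overlap, with Itgb3 and Dmp1 showing the widest gaps upward and Npr3 the widest downward.

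The alpha V partner did not follow its beta chain. Itgav was at 88.8, 96.8 and 119 CPM in CD61low and at 137, 101 and 119 CPM in CD61high libraries, overlapping groups with a Log2FC of 0.23 (SE 0.13, adjusted p = 0.17). Per transcript length, in TPM, a share of all transcripts, Itgav stood at 40.0 against Itgb3 at 2.01 in CD61low cells, and at 35.9 against 31.5 in CD61high cells, so the message for alpha V exceeded that for beta 3 by far in 1 arm and was close to it in the other. Itgb1 and Itgb5, whose beta chains can also pair with alpha V, were more abundant than Itgb3 in both arms. Itgb1, the common beta chain of collagen and fibronectin receptors, had 564 TPM in CD61low and 974 TPM in CD61high cells and was called higher (Log2FC 1.11, SE 0.07), and Itgb5 had 143 and 169 TPM and was not called (0.49, SE 0.07). Itga2b, the platelet partner of beta 3, was at 6.53 ± 0.727 and 6.36 ± 0.447 CPM, with no difference detected.

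Of 16 integrin subunits tested, 4 were called higher (background 4.84%) and 2 lower (background 4.37%), with a median of 0.12 that became -0.18 under library size alone (3 higher and 4 lower), -0.0096 with a length offset and -0.017 without CD61low library 1. The other higher chains were the collagen-binding alpha chains Itga11 (61.5 ± 7.12 to 194 ± 9.85 CPM, Log2FC 1.66) and Itga10 (204 ± 28.3 to 558 ± 30.9 CPM, 1.45). The lower chains were Itga6, a laminin receptor chain (5.48 ± 1.19 to 1.58 ± 0.133 CPM, -1.79), and Itga1, another collagen receptor chain (15.4 ± 1.46 to 4.88 ± 0.462 CPM, -1.65), and the call of Itga6 was lost at -0.94 with a length offset. Chains for collagen binding thus moved both ways. By adjusted p alone, 2342 of all 12077 genes tested were higher and 1933 lower. Of 24 genes for adaptor and focal adhesion proteins, which couple integrins to actin, 5 were higher and 5 lower by adjusted p alone. The 1 called was Tns1, which encodes tensin 1 (62.8 to 126 CPM, 1.01). Its call was lost without CD61low library 1 (0.95) or 2 (0.90) or CD61high library 1 (0.90) or 3 (0.97) and at 0.71 under library size alone, and the list's median was -0.12.

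Among 23 genes of SIBLING phosphoproteins and other Arg-Gly-Asp ligands, 8 were called higher and 3 lower, with a median of 0.54. Under library size alone 4 were higher and 5 lower, with a median of 0.24. Fn1, fibronectin, was at 5985, 5521 and 7399 CPM in CD61low and at 16856, 11720.3 and 13847 CPM in CD61high libraries (Log2FC 1.17, SE 0.14, adjusted p = 8.9e-05), and Ibsp, bone sialoprotein, rose from 955 to 2263 CPM (1.24). Vwf, the platelet-binding factor of endothelium, was at 19, 14.5 and 20.6 against 91.2, 72.3 and 77.3 CPM (2.16, SE 0.13, adjusted p = 9.6e-07). Ligands did not all go the way of the receptor. The microfibril gene Fbn1 fell from 17.2, 17.3 and 18.9 CPM to 3.40, 2.36 and 2.41 CPM (-2.70, SE 0.16), and Edil3, an extracellular protein with such a motif, from 14.0 ± 4.01 to 2.40 ± 1.11 CPM (-2.53, SE 0.31).

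Osteoblast genes were mostly higher. Of 29 tested, 22 were called higher and 1 lower, with a median of 1.37. Sp7 and Pth1r were among them. Alpl, the alkaline phosphatase that frees phosphate for mineral, was at 983, 768 and 917 CPM in CD61low and at 3105, 3350.2 and 3240.4 CPM in CD61high libraries (Log2FC 1.86, SE 0.10, adjusted p = 3.8e-07). Osteocalcin is encoded by near-identical copies whose reads may be split between them. Bglap was at 26.2, 20.3 and 21.5 against 108, 142 and 122 CPM (2.45, SE 0.12), and Bglap2 at 27.3 ± 5.05 against 149 ± 17.3 CPM (2.44). Runx2 (1.23), Dlx3 (1.32), Dlx5 (1.78) and Dlx6 (1.4), all transcription factors of the osteoblast lineage, were called as well. The exception was Tnn, tenascin W, at 4.52 in CD61low and 1.32 CPM in CD61high cells (-1.77), and Postn, periostin, was not called at 117 against 187 CPM (0.67).

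Osteocyte genes were called in both directions, more of them higher. Of 22 tested, 18 had a Log2FC above 0. By adjusted p alone 14 were higher and 4 lower, beside 2342 and 1933 of all 12077 genes tested. With both thresholds 6 were called higher and 3 lower, and the median of the list was 0.83. Besides Dmp1 and Sost, the higher genes were Phex, the endopeptidase whose loss causes hypophosphatemia (10.4, 9.43 and 11.6 against 58.7, 37.9 and 44.8 CPM, Log2FC 2.17, SE 0.16), the calcium exchanger Slc8a3 (48.6 to 151 CPM, 1.63), Ptprz1 (6.84 to 21.1 CPM, 1.63) and the scavenging chemokine receptor Ackr3 (53.9 to 163 CPM, 1.6). The lower genes were Hyou1, an endoplasmic reticulum chaperone (553, 615 and 567 against 122, 129 and 132 CPM, -2.18, SE 0.07), the membrane chemokine Cx3cl1 (64.0 ± 3.23 to 18.8 ± 2.03 CPM, -1.77) and Rspo3, a Wnt agonist (12.4 ± 1.99 to 3.77 ± 0.981 CPM, -1.72). Cx3cl1 is counted again below among the chemokines, and Rspo3 among the Wnt genes. Pdpn, an early osteocyte marker, was at 15.5 against 11.1 CPM and not called. Mepe and Fgf23, which late osteocytes make, had at most 7 and 1 reads in any library, and Reln, from the same list, none. Of 20 genes of mineral and phosphate handling, some of them also on the osteoblast list, 9 were called higher and none lower, with a median of 0.87 (8 higher and 2 lower under library size alone). Phospho1, the vesicle phosphatase that helps to start mineral, stood at 437 ± 55.1 against 1444 ± 110.2 CPM (1.73, SE 0.10), and the phosphate importer Slc20a1, at 73.5 against 41.3 CPM, was not called (-0.83).

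Collagen genes shifted in composition. Of 27 chains tested, 12 were called higher and 4 lower, with a median of 0.95, and under library size alone the calls were 5 higher and 5 lower. Col1a1, the main bone collagen chain, was at 18243, 15667 and 19081 CPM in CD61low and at 45025, 43364 and 45967 CPM in CD61high libraries (Log2FC 1.34, SE 0.09, adjusted p = 1.9e-06). In TPM it stood at 5794 and 12363, and it entered the 10 most abundant transcripts in CD61high cells alone. Other fibrillar chains that rose were Col11a2, from 337, 324 and 411 CPM to 1663, 1345 and 1689.9 CPM (2.13, SE 0.12, adjusted p = 5.3e-07), and Col2a1, the main chain of cartilage, from 0.556 ± 0.135 to 2.00 ± 0.225 CPM (1.83). Fibrillar chains also went the other way. Col3a1, of soft tissue, was at 90.3, 82.4 and 89.7 CPM in CD61low against 19.5, 24 and 23.2 CPM in CD61high libraries (-1.98, SE 0.09, adjusted p = 2.8e-07), and Col5a3, a minor chain, at 11.6 ± 1.97 against 1.17 ± 0.0461 CPM (-3.30, SE 0.20). The basement membrane chains Col4a1 and Col4a2 had at most 11 reads in any library and were not tested.

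**Figure D3:**
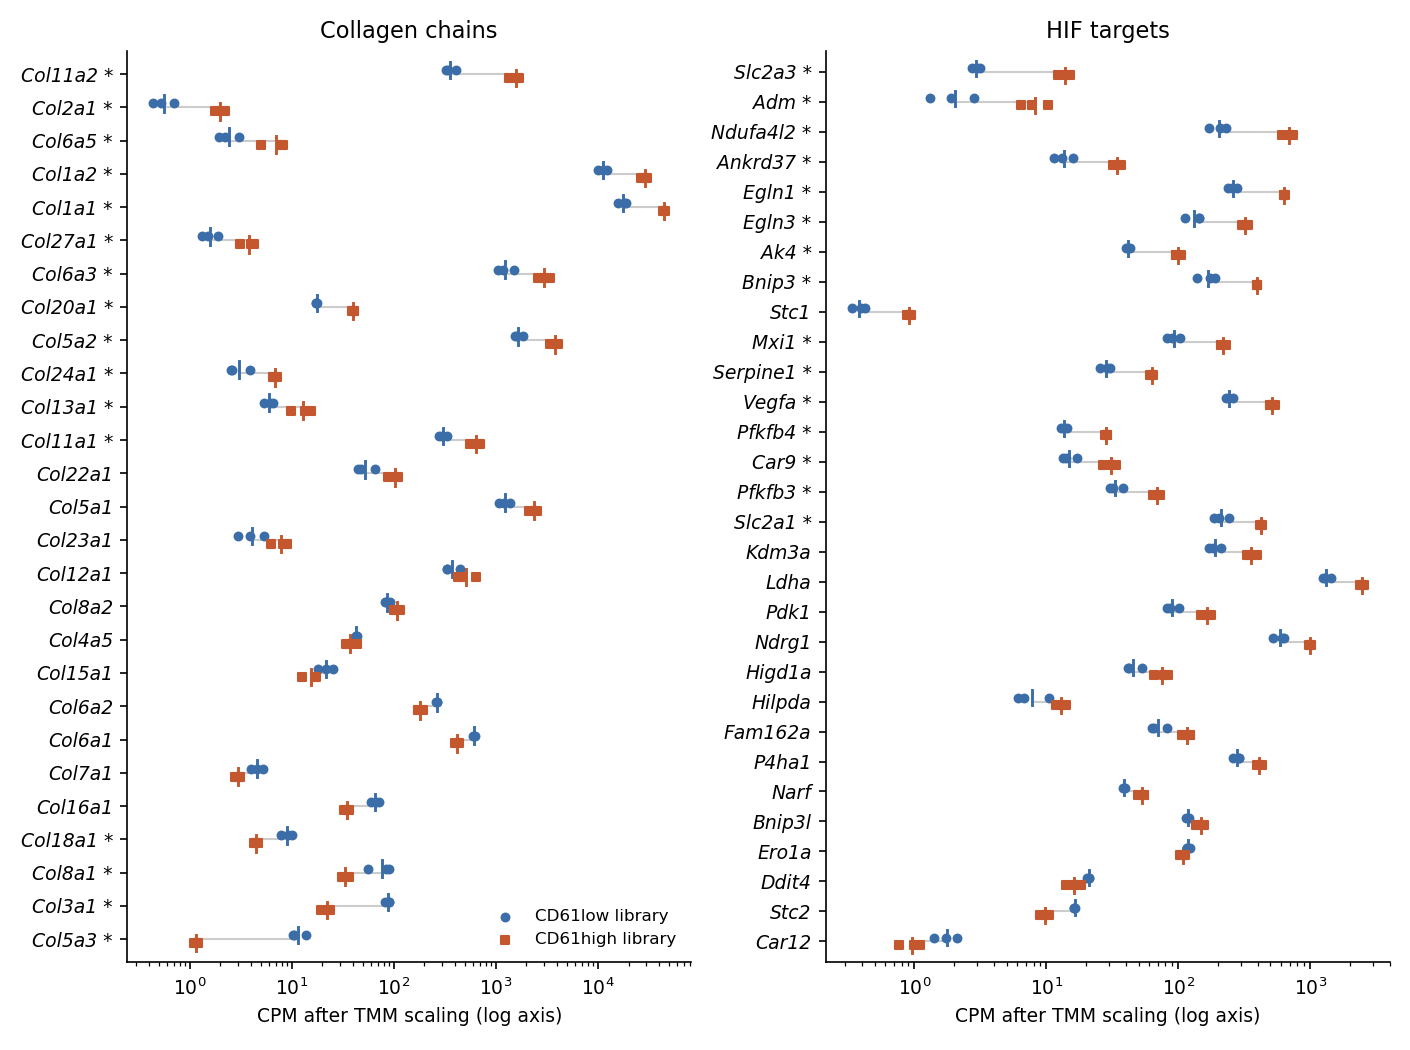
Level of the 27 collagen chains and 30 HIF targets tested, in scaled CPM on log axes, 1 point a library, with vertical ticks at the group means, an asterisk at called genes and genes ordered by Log2FC. Collagens run from 2.13 for Col11a2 at the top to -3.30 for Col5a3 at the bottom, and the called HIF targets all have CD61high libraries (squares) to the right of CD61low libraries (circles).

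Enzymes that modify and cross-link collagen were called higher in 7 of 29 cases and lower in 3, with a median of 0.64 (4 higher and 3 lower, and 0.34, under library size alone). P3h2, a prolyl 3-hydroxylase, rose from 44.2 ± 8.04 to 197 ± 17.7 CPM (Log2FC 2.16, SE 0.13), Loxl4, a lysyl oxidase, from 324 ± 48.0 to 977 ± 148 CPM (1.59), Bmp1, the procollagen C-proteinase, from 240 to 642 CPM (1.42), and Creb3l1, a transcription factor for collagen secretion, from 734 to 1903 CPM (1.38). Loxl1, another lysyl oxidase, was lower (34.0 to 14.8 CPM, -1.20). Of 32 proteoglycan and matricellular genes, 9 were called higher and 5 lower, with a median of 0.50 (5 each way and 0.20 under library size alone). The widest pair ran in opposite directions. Srpx2, a secreted sushi-domain protein, was at 13.3, 12.2 and 13.2 CPM in CD61low and at 102, 109 and 109 CPM in CD61high libraries (3.04, SE 0.08, adjusted p = 2.8e-08). Ogn, the small leucine-rich proteoglycan osteoglycin, was at 91.1, 103 and 83.6 against 5.81, 6.16 and 4.47 CPM (-4.08, SE 0.13, adjusted p = 4.1e-08). The matricellular genes Ccn3 (10.5 ± 1.41 to 0.698 ± 0.345 CPM, -3.89) and Ccn5 (21.1 to 4.99 CPM, -2.08) also fell, while Ccn2 was higher (55.4 to 121 CPM, 1.13, but 0.83 and not called under library size alone).

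Of 31 matrix proteases and inhibitors, 10 were called higher and 4 lower, with a median of 0.19. Scaling by library size alone gave 4 higher and 7 lower, and a median of -0.11. Mmp13, a collagenase of bone and hypertrophic cartilage, was at 3.64, 2.86 and 3.81 CPM in CD61low and at 29.98, 27.8 and 31.2 CPM in CD61high libraries (Log2FC 3.11, SE 0.13, adjusted p = 2.0e-07). Adamts17 (2.41 to 11.4 CPM, 2.24) and Adamts12 (80.8 ± 17.4 to 330.1 ± 62.9 CPM, 2.03), secreted metalloproteases, rose too. Adamts1, a protease of the same family that cleaves proteoglycans, fell from 40.3 ± 1.08 to 11.2 ± 2.17 CPM (-1.85, SE 0.13).

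Markers of cartilage moved with these matrix genes. Of 9 chondrocyte markers tested, 6 were called higher and none lower, and their summed level was 412 to 525 CPM in CD61low and 1592 to 1972 CPM in CD61high libraries, most of it from Col11a2. Ihh, a signal of prehypertrophic chondrocytes, was at 12.9 ± 1.96 against 41.3 ± 2.95 CPM (Log2FC 1.68) and Sox6 at 32.6 ± 7.04 against 103.98 ± 22.7 CPM (1.67). Of the defining cartilage markers, Col2a1 was called higher from a low level (0.556 to 2.00 CPM, 1.83), as was Comp (1.32 to 4.10 CPM, 1.63), Acan, the aggregating proteoglycan, was at 5.77 against 7.34 CPM and not called, Col9a2 had 0 reads in all 6 libraries, and Col10a1 had 1 read in all. The part of such cells in the matrix results was not tested.

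The largest coordinated fall was in interferon-stimulated genes, which cells switch on in answer to interferon. Of 41 tested, 29 were called lower in CD61high cells and none higher, with a median of -2.08. Their summed level was 1549 to 1643 CPM in CD61low and 680 to 732 CPM in CD61high libraries. The transcription factors that interferon activates bind a DNA element with the repeated core GAAA, so promoters of called genes are shown first, from the mouse RefSeq starts of GRCm38.p6, written on the gene's strand with each match of GAAA, any 2 bases and GAAA, or its reverse complement, in capitals. Ifit1 (chr19:34640755-34640843, plus), Ifit3 (chr19:34583343-34583446, plus), Gbp3 (chr3:142559969-142560043, plus) and Isg15 (chr4:156200845-156200926, minus) were chosen because each holds more than 1 match.
Ifit1: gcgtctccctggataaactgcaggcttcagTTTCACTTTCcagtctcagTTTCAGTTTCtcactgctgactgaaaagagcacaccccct
Ifit3: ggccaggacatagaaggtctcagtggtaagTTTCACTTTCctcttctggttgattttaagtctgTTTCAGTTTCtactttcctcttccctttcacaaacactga
Gbp3: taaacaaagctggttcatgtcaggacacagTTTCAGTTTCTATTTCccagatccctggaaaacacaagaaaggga
Isg15: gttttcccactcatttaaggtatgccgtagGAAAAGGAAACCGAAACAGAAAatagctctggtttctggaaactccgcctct

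In the 250 bases before a start, this motif occurred on either strand in 18 of the 39 interferon-stimulated genes with a RefSeq promoter (46.2%), against 3.46% of all 27025 genes with a promoter and 2.98% of all 32851 promoters. It was in 13 of the 22 called genes with a promoter (59.1%) and in 1 of the 9 that were tested and not called. Outside the list, 21 of 362 called-lower genes held it (5.80%), beside 2.88% of called-higher genes and 2.77% of genes that were not called. A match shows that these letters are in the window and does not show binding.

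Ifit1, an RNA-binding inhibitor of viral translation whose promoter carries the first pair of matches, was at 26.9, 29.1 and 24.8 CPM in CD61low and at 0.587, 1.84 and 0.647 CPM in CD61high libraries (Log2FC -4.70, SE 0.27, adjusted p = 6.2e-07). Ifi44 was at 29.5, 34.5 and 33.0 against 1.41, 2.48 and 0.765 CPM (-4.37, SE 0.24), and the RNA sensor Oas2 at 48.3, 54.0 and 48.6 against 5.22, 3.97 and 4.29 CPM (-3.48, SE 0.12). No CD61high library came near a CD61low library for these genes. Isg15, the ubiquitin-like modifier, was at 43.0, 43.4 and 34.7 against 7.27, 6.97 and 7.94 CPM (-2.45, SE 0.12), Ifit3 at 9.55 ± 1.86 against 1.38 ± 0.281 CPM (-2.79), the guanylate-binding GTPase Gbp3 at 14.2 ± 2.31 against 0.992 ± 0.0586 CPM (-3.83) and Rtp4 at 27.0 ± 3.62 against 2.34 ± 0.529 CPM (-3.53). Reads of Oas1a and Oas1g and of Ifit3 and Ifit3b can be split between near copies. Members that were not called included Ifit2 (16.7 against 11.3 CPM, -0.57), Bst2 (106 against 61.1 CPM, -0.79) and Isg20, which leaned the other way (30.4 against 43.0 CPM, 0.50).

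**Figure D4:**
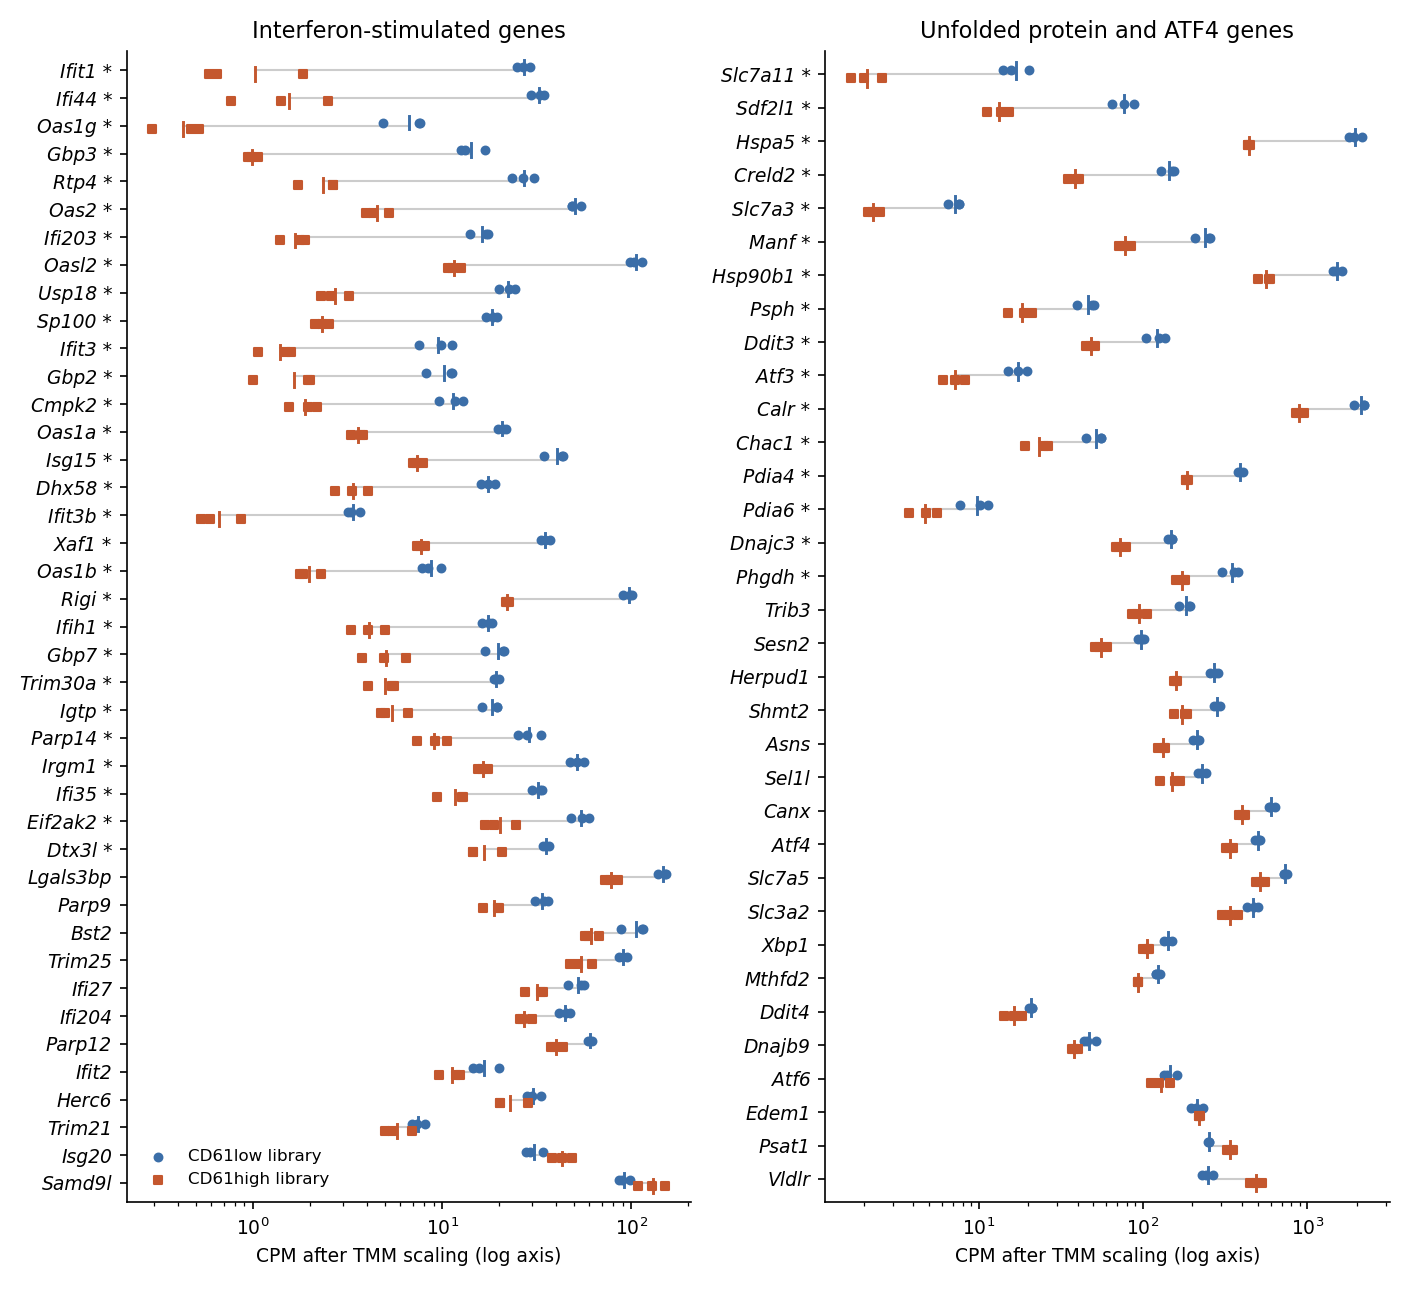
Level of 41 interferon-stimulated genes and 34 genes of the unfolded protein and ATF4 responses, in scaled CPM on log axes, 1 point a library, with vertical ticks at the group means, an asterisk at called genes and genes ordered by Log2FC. The first list runs from -4.70 for Ifit1 to 0.51 for Samd9l, the second from -3.01 for Slc7a11 to 0.98 for Vldlr, and CD61high libraries (squares) lie left of CD61low libraries (circles) at every called gene.

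The signalling proteins behind this response changed in part. Of 23 interferon pathway genes, 7 were called lower and none higher, with a median of -0.12. Among them were the transcription factors Irf7 (48.5 ± 5.77 to 11.9 ± 0.849 CPM, Log2FC -2.03), Irf5 (10.3 to 2.74 CPM, -1.90), Irf9 (58.9 to 20.8 CPM, -1.5) and Stat2 (103 to 39.5 CPM, -1.38), the adaptor Sting1 (-1.11) and the RNA receptor Tlr3 (-1.06). Most of them are themselves induced by interferon. The receptor chains Ifnar1 (106 against 87.9 CPM, -0.27) and Ifnar2 (57.8 against 72.5 CPM, 0.33) and the kinase Jak1 (228 against 227 CPM, -0.01) were not called, and Ifnb1 had no read in any library. Of 21 genes of class I antigen presentation, 5 were called lower and none higher, with a median of -0.49. These were the immunoproteasome subunit Psmb8 (34.0 ± 3.28 to 11.2 ± 1.94 CPM, -1.6), the peptide trimming enzyme Erap1 (30.7 to 11.6 CPM, -1.4), Cd1d1 (-1.25), whose call was lost without CD61low library 1 (-1.26) or 2 (-1.11) or CD61high library 2 (-1.01) or 3 (-1.25), and the chaperones Calr (-1.25) and Pdia3 (-1.09). The call of Cd1d1 was also lost with libraries blocked by replicate number (-1.25) and with a length offset (-1.10). The heavy and light chains H2-K1 (442 against 342 CPM, -0.37), H2-D1 (722 against 766 CPM, 0.09) and B2m (1209.8 against 1385 CPM, 0.20) were not called. Cd74, the class II invariant chain, was among the 15 widest falls of the genes tested, at 35.0, 37.6 and 29.6 against 1.58, 2.71 and 1.53 CPM (-4.13, SE 0.19).

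Secreted immune signals fell alongside. Of 10 chemokines and cytokines tested, 5 were called lower and 1 higher, with a median of -0.88. Cxcl10, an interferon-induced chemokine, was at 9.66, 10.5 and 9.03 CPM in CD61low and at 0.352, 0.345 and 1.41 CPM in CD61high libraries (Log2FC -3.78, SE 0.35, adjusted p = 1.4e-05). Kitl, the ligand of the Kit receptor on blood and mast cell precursors, was at 22.4, 21.2 and 25.6 against 1.53, 0.691 and 0.941 CPM (-4.45, SE 0.21, adjusted p = 2.8e-07), and the neutrophil chemokine Cxcl1 at 16.4 against 1.83 CPM (-3.16). The member that rose was Tnfrsf11b, osteoprotegerin, the decoy receptor that blocks osteoclast formation (10.2 to 27.3 CPM, 1.41). Macrophage and osteoclast markers, which could stand for blood-lineage cells, summed to 93.6 to 105 CPM in CD61low and 103.6 to 107 CPM in CD61high libraries. Of their 24 members, 5 were tested and none called, and 7 had 0 reads in all 6 libraries, among them the macrophage marker Adgre1 and the osteoclast receptor Calcr, while the leukocyte antigen Ptprc had 1 read in all.

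Further genes lacked the reads to be tested but were kept by a filter that asks for reads in 1 group only. It admitted 449 more genes, of which 17 were called higher and 166 lower, against 10.1% of genes called in that fit. Genes with enough reads in 1 group only could enter by this route, which favours genes that differ. These counts are therefore a description and carry no weight of their own. The most abundant of them in the downward direction, in reads for the CD61low and then the CD61high libraries, were the interferon-induced GTPase gene Gvin2 (436, 429 and 479 against 15, 3 and 4), coagulation factor F5 (244, 307 and 332 against 7, 4 and 10), the Wnt agonist Rspo2 (244, 244 and 219 against 5, 15 and 4), Oasl1 (241, 211 and 222 against 13, 4 and 6) and the stem cell antigen Cd34 (199, 259 and 177 against 4, 17 and 7). In the upward direction they were Rgs8 (7, 5 and 16 against 67, 42 and 28), Pacsin1 (3, 10 and 9 against 32, 33 and 42), Lmod3 (4, 10 and 5 against 33, 33 and 34), Chst1 (10, 1 and 6 against 21, 18 and 41) and Hs3st6 (8, 4 and 12 against 23, 30 and 20). The downward group was far better covered, in its higher arm, than the upward group. Of the 11 untested interferon-stimulated genes, 6 were called lower in this fit, and 6 of the 25 untested chemokines and cytokines. In every other list at most 2 untested members were called lower and at most 1 higher. These counts too are a description, since 166 of all 449 genes so admitted were called lower.

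CD61high cells also had less transcript for proteins of the endoplasmic reticulum stress response, in which the sensors Perk, Ire1 and Atf6 raise chaperones and amino acid genes. Of 34 genes of the unfolded protein and ATF4 responses, 16 were called lower and none higher, with a median of -0.89, and their summed level was 11328 to 12554 CPM in CD61low and 6248 to 6470 CPM in CD61high libraries. Hspa5, the chaperone BiP, was at 1912, 2163 and 1797 CPM against 438, 438 and 449 CPM (Log2FC -2.15, SE 0.08, adjusted p = 1.0e-07). Its 3 CD61high libraries were within a few percent of each other. Its cofactor genes Sdf2l1 (76.4, 87.8 and 65.0 against 11.3, 15.3 and 13.6 CPM, -2.51, SE 0.14) and Creld2 (145 ± 13.3 to 38.6 ± 3.15 CPM, -1.91) fell as well, with Manf (238 to 77.7 CPM, -1.61) and Hsp90b1 (1514 to 558 CPM, -1.44). On the ATF4 arm the cystine importer Slc7a11 was at 14.2, 15.9 and 20.4 against 2.58, 1.67 and 2.00 CPM (-3.01, SE 0.20), and Ddit3, the transcription factor Chop, at 122 ± 16.0 against 48.0 ± 2.78 CPM (-1.34). The upstream factors Atf4 (501 against 337 CPM, -0.57), Xbp1 (142 against 106 CPM, -0.43) and Atf6 (146 against 128 CPM, -0.19) were not called. The serine pathway was uneven, with Phgdh (-1.01) and Psph (-1.34) called and Psat1 at 251 against 338 CPM not called (0.43).

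Targets of the hypoxia-inducible factor HIF made the opposite shift. HIF is degraded when Egln prolyl hydroxylases have oxygen and otherwise raises genes for glucose uptake, glycolysis and vessel growth through elements with the core ACGTG. Of 30 targets tested, 15 were called higher in CD61high cells and none lower, with a median of 1.02, but under library size alone 5 were called higher and 2 lower. Their summed level was 3999 to 4689 CPM in CD61low and 8480 to 8526 CPM in CD61high libraries. Promoter segments of Bnip3 (chr7:138909579-138909644, minus, GRCm38.p6) and Egln1 (chr8:124949288-124949352, minus, GRCm38.p6) are shown as examples of called targets, from RefSeq and on the gene's strand, with ACGTG or its reverse complement in capitals.
Bnip3: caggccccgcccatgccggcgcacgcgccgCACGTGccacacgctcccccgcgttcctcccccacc
Egln1: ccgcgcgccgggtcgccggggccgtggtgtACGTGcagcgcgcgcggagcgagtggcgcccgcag

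This shorter motif is common. ACGTG was found on either strand in 16 of the 25 HIF targets with a promoter (64.0%), against 18.5% of all genes with a promoter, 25.6% of the tested ones and 16.6% of all promoters of that length, and in 10 of 12 called targets against 6 of 12 targets that were tested and not called. Over all tested genes with a promoter, 25.4% of called-higher, 17.2% of called-lower and 25.9% of uncalled genes held it, and outside the list the share of called-higher genes was 23.7%.

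Slc2a3, a neuronal-type glucose transporter, showed the widest difference among HIF targets, at 2.97, 3.14 and 2.73 CPM in CD61low and 14.3, 15 and 12.4 CPM in CD61high libraries (Log2FC 2.23, SE 0.15, adjusted p = 1.4e-06). Adm, the vasodilator adrenomedullin, was at 2.01 ± 0.760 against 8.13 ± 1.92 CPM (2.01), and Ndufa4l2, a mitochondrial protein induced in hypoxia, at 232, 170.2 and 207 against 615, 737 and 719.6 CPM (1.77, SE 0.12). Bnip3, a mitophagy receptor, was at 190.3, 138 and 173 against 396, 395 and 393 CPM (1.24, SE 0.11), and Egln1, the main HIF hydroxylase, at 278, 239 and 256 against 635, 644 and 632 CPM (1.31, SE 0.07). No CD61low library reached any CD61high library for these genes. The vessel growth factor Vegfa (244 to 512 CPM, 1.07) was called, and Ddit4, Stc2 and Car12 leaned lower (-0.35, -0.76 and -0.87) and were not called. For glycolysis, 8 of 22 genes were called higher and none lower (median 0.86), of which 2 were called under library size alone. The lactate exporter Slc16a3 was at 60.1, 47.0 and 59.2 against 167, 183 and 169 CPM (1.64, SE 0.10), Aldoc at 23.6 against 65.4 CPM (1.47), Tpi1 at 821 against 1966 CPM (1.26) and Gapdh, often used as a reference gene, at 4820.1 ± 264 against 10170.4 ± 684 CPM (1.08), the last 2 falling to 0.96 and 0.78 under library size alone. None of 44 respiratory chain genes was called, with a median of 0.12 that became -0.18 under library size alone.

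Wnt signalling, which favours bone formation, was called higher in 11 of 35 genes and lower in 3 (median 0.38; 8 higher and 7 lower under library size alone). Several of the higher genes encode inhibitors, namely the secreted antagonists Wif1 (72.4, 52.3 and 66.7 against 229.6, 222 and 217 CPM, Log2FC 1.81, SE 0.11), Sfrp2 (31.5 ± 4.31 to 102 ± 3.69 CPM, 1.70) and Sost (15.9 to 36.4 CPM, 1.20), the Wnt deacylase Notum (5.93 ± 1.62 to 21.6 ± 2.47 CPM, 1.86) and the Frizzled-removing ligase Rnf43 (12.8 to 38.6 CPM, 1.59). The co-receptor Lrp5 (176 to 523 CPM, 1.57), the receptor Fzd5 (1.31), the transcription factor Tcf7 (1.46) and Ctnnb1, beta-catenin (1.03), rose too. The lower genes were Rspo3 (-1.72), Wnt11 (-1.63) and Dkk3 (-1.03). Inhibitors and activators thus lay on both sides. The feedback target Axin2, at 13.3 against 26.0 CPM, missed the call (0.97).

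In the BMP and TGF-beta pathways 9 of 42 genes were called higher and none lower (median 0.31; 5 higher and 3 lower under library size alone). Among them were the ligand Bmp8a (25.9 ± 8.79 to 95.1 ± 21.0 CPM, Log2FC 1.88), the inhibitory Smad6 (76.6 to 211 CPM, 1.46) and the receptor Acvrl1 (0.891 to 2.58 CPM, 1.53), whose call was lost at 0.80 with a length offset. Of 31 genes of parathyroid hormone and cAMP signalling, 2 were called higher, Pth1r and the receptor activity protein Ramp1 (27.1 to 82.5 CPM, 1.61), and 2 lower, the adenylyl cyclase Adcy7 (20.3 to 5.92 CPM, -1.78) and Rgs2 (2.67 to 0.819 CPM, -1.70), and the median was 0.02, which became -0.28 under library size alone (2 higher and 5 lower). The call of Rgs2 was lost without CD61low library 1 (-1.54) or CD61high library 2 (-1.41) or 3 (-1.56), and with a length offset (-1.06). By adjusted p alone, 9 of the 31 were higher and 6 lower, beside 2342 and 1933 of all 12077 genes tested. In the Notch pathway the ligand Jag1 (46.5, 49.0 and 45.2 against 16.2, 13.6 and 14.6 CPM, -1.67), the receptor Notch1 (56.4 ± 5.67 to 22.6 ± 1.99 CPM, -1.32) and Maml2 (25.7 to 10.9 CPM, -1.24) were lower, the ligand Jag2 was higher (44.8 to 94.5 CPM, 1.08, but not called without CD61low library 2, at 0.99, or under library size alone, at 0.78), and the other 12 genes were not called (median -0.06).

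Of 38 growth factor genes, 7 were called higher and 9 lower, with a median of -0.02. With library size alone 2 were higher and 13 lower. Among the genes that passed the filter on low counts, the widest fall was that of Npr3, the clearance receptor of natriuretic peptides, at 16.6, 19.6 and 17.1 CPM in CD61low and 0.587, 0.518 and 0.412 CPM in CD61high libraries (Log2FC -5.12, SE 0.19, adjusted p = 8.4e-08). The hepatocyte growth factor receptor Met (22.3 ± 1.89 to 3.19 ± 0.423 CPM, -2.80) and the neurotrophin Bdnf (13.5 ± 0.928 to 2.55 ± 0.598 CPM, -2.40) also fell. Receptors for platelet-derived and fibroblast growth factors went up, Pdgfra from 115, 109 and 143 to 458, 370.2 and 427 CPM (1.78, SE 0.12), Fgfr2 from 53 to 129 CPM (1.28) and Fgfr3 from 56.6 to 132 CPM (1.22). Nrtn, the neurotrophic factor neurturin, was among the widest rises, at 5.50, 5.77 and 4.30 against 32.0, 52.2 and 39.4 CPM (2.99, SE 0.19).

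Axon guidance genes were called higher in 7 of 38 cases (background 4.84%) and lower in 5 (background 4.37%), with a median of 0.31. Under library size alone 5 were higher and 8 lower, with a median of 0.01. The secreted semaphorin Sema3a was at 53.8, 60.6 and 54.9 CPM against 9.27, 9.84 and 7.29 CPM (Log2FC -2.68, SE 0.12), Sema3c fell by 2.79 and the semaphorin receptor Plxnc1 from 5.47 ± 0.421 to 0.448 ± 0.126 CPM (-3.59). The membrane-bound Sema5a rose from 59.4 ± 14.2 to 196 ± 33.4 CPM (1.73), and Sema7a (1.68), Sema4d (1.01) and Sema6a (1.53) with it. Of 32 genes for actin bundles and dendrites, 1 was called each way, the actin-severing Gsn (379 ± 21.2 to 1085 ± 49.5 CPM, 1.52) and the calponin Cnn3 (209 to 99.5 CPM, -1.07). By adjusted p alone 9 were higher and 8 lower, beside 2342 and 1933 of all 12077 genes tested. Under library size alone 1 was called higher and 4 lower, and the median of 0.05 became -0.26. Of 26 ion channel and glutamate receptor genes, 3 were higher and 2 lower (median 0.35). Scaling this list by library size alone gave 3 higher and 3 lower, with a median of 0.05. The glutamate receptor subunit Grin2c was at 1.29, 1.74 and 0.879 against 13, 14.0 and 13.1 CPM (3.35, SE 0.21), and the mechanosensitive channel Piezo2 at 16.5, 15.3 and 21.2 against 4.52, 3.05 and 2.06 CPM (-2.46, SE 0.24), while Piezo1, the main such channel of osteocytes, was at 572 against 826 CPM and not called (0.53).

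Of 46 replication and mitosis genes, 1 was called higher, the spindle motor Kif11 (88.0, 107 and 119.6 against 215, 207 and 235 CPM, Log2FC 1.06, but not called without CD61low library 1, at 0.95, or under library size alone, at 0.76), and 1 lower, Ccne1, cyclin E1 (12.0 ± 0.321 to 5.29 ± 0.821 CPM, -1.18), with a median of 0.40. By adjusted p alone, 25 of the 46 were higher and 8 lower, beside 2342 and 1933 of all 12077 genes tested. Under library size alone 0 of the 46 were called higher and 1 lower, and the median was 0.10. Mki67, the proliferation marker, was at 330.4 against 489.6 CPM and not called (0.57). Among cell cycle inhibitors and p53 targets, Gadd45a (46.2 ± 5.82 to 13.4 ± 0.201 CPM, -1.79), Ccnd2 (-1.56) and Zmat3 (-1.25) were lower and Ccnd1 higher (1.05), of 25 tested, with a median of 0.12 that became -0.18 under library size alone, where 0 were higher and 6 lower. The call of Zmat3 was lost without CD61low library 1 (-1.28) or 2 (-1.23) or CD61high library 1 (-1.4) or 2 (-0.86). It was also lost in DESeq2 (-1.25), with the filter of edgeR (-1.24) and with a length offset (-1.27). The call of Ccnd1 was lost under library size alone (0.75). Of 76 ribosomal protein genes, Rps29 (1.03), Rpl32 and Rpl13 were called, with a median of 0.62, and 75 had a Log2FC above 0. By adjusted p alone 60 were higher and 0 lower, beside 2342 and 1933 of all 12077 genes tested. Under library size alone none was called and the median was 0.31. Rps29 lost its call without CD61low library 2 (0.89) or 3 (0.87) or CD61high library 3 (0.82), and Rpl32 without CD61low library 2 (0.99) or 3 (0.94) or CD61high library 2 (0.98) or 3 (0.99). Rpl13 was at 866, 600.1 and 550.5 against 1079, 1039 and 1948 CPM (1.01), and its call was lost without CD61low library 2 (0.93) or 3 (0.87) or CD61high library 3 (0.65). The call of Rpl13 was also lost with libraries blocked by replicate number (0.97) and in DESeq2 (1.00). With a length offset the calls of Rps29 (0.96) and Rpl32 (0.98) were lost.

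Immediate early genes, which also respond to the handling of cells during dissociation and sorting, were called higher in 5 of 29 cases and lower in 1 (median 0.38; 1 higher and 2 lower under library size alone). Fos was at 241, 181 and 172 CPM in CD61low and at 635, 370.5 and 367 CPM in CD61high libraries (Log2FC 1.21, SE 0.21, adjusted p = 7.6e-04), and at 0.90, below the threshold, without CD61high library 1. Fosb was at 98.3, 55.9 and 66.0 against 341, 175 and 192 CPM (1.68, SE 0.26). In both genes library 1 was the highest of its arm. The mean level of Fos in the unsorted cells was 2.54 to 9.11 CPM over days 1 to 14, in a table that was normalized separately. How far handling entered these levels was not tested. The next 3 lists had few calls, beside 4.84% of all tested genes called higher and 4.37% called lower. Calls were made for 1 member of the cholesterol list (of 30, the fatty acid elongase Elovl6, -1.39), 1 of the tubulin list (of 24, the microtubule stabilizer Map6, -1.83) and 3 of the SRF and YAP targets (of 28, with Ankrd1 at 23.9 ± 4.22 against 2.06 ± 0.219 CPM, -3.53). The medians of these lists were 0.04, -0.05 and 0.01, and under library size alone they became -0.26, -0.35 and -0.29. In the tubulin list 2 genes were then called lower in place of 1. The SRF and YAP targets were then called higher in 0 and lower in 6 cases, in place of 1 and 2.

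Markers of further cell types were checked in the same way. The platelet list had 2 testable genes, neither called, and summed to 13.2 to 18.3 CPM in CD61low and 12.4 to 15.9 CPM in CD61high libraries. Endothelial markers summed to 27.0 to 36.1 and 84.5 to 103 CPM, of which Vwf was higher and Flt1, a receptor for Vegfa, lower (6.75 ± 0.501 to 0.794 ± 0.463 CPM, Log2FC -3.07), with Cdh5, Kdr, Emcn and Cldn5 at or near 0 reads. Adipocyte markers summed to 108 to 117 and 186 to 204 CPM, with 1 of 4 called each way. The higher call, of the adiponectin receptor Adipor2, was lost without CD61low library 2 (0.98) or 3 (1.00) or CD61high library 1 (0.98) or 3 (1.00), with a length offset (0.97) and under library size alone (0.70), and the lower call, of Dgat2, with a length offset (-1.46). Muscle and pericyte markers summed to more, 492 to 507 CPM in CD61low and 683 to 757 CPM in CD61high libraries, and 2 of 6 were called higher and none lower, the pericyte proteoglycan Cspg4 (78.4 ± 18.6 to 189 ± 39.8 CPM, 1.27, but 0.97 under library size alone) and the troponin Tnnt2 (1.5 ± 0.180 to 5.97 ± 0.945 CPM, 1.99). The part of such cells in the differences above was not tested. Among 17 progenitor and fibroblast genes, 3 were higher, including Pdgfra and Gsn, and 2 lower, Kitl and the transcription factor Twist2 (12.3 ± 1.24 to 1.38 ± 0.535 CPM, -3.15). Of the 11 untested members of that list, 2 were called lower and 0 higher with the filter of edgeR, a route that favours genes that differ.

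Some of the widest differences belonged to none of these lists. Higher were Fam180a (38.9, 36.6 and 46.0 against 254, 250.2 and 254 CPM, Log2FC 2.64), the cysteine dioxygenase Cdo1 (17.5 ± 2.71 to 97.2 ± 7.07 CPM, 2.48), the monoacylglycerol lipase Mgll (24.2 ± 1.74 to 124 ± 1.00 CPM, 2.36), brain creatine kinase Ckb (3.46 ± 0.395 to 23.6 ± 3.86 CPM, 2.77) and the glycogen-targeting subunit Ppp1r3c (6.86 ± 1.48 to 33.9 ± 3.70 CPM, 2.31). Lower were the transcriptional cofactors Zfpm2 (20.0, 22.8 and 23.9 against 1.29, 1.96 and 0.529 CPM, -4.13) and Runx1t1 (14.2 ± 1.27 to 1.26 ± 0.315 CPM, -3.48) and the adhesion receptor Adgrg6 (28.5 ± 4.28 to 2.49 ± 0.295 CPM, -3.51). Each of these separated the arms by more than 4-fold with an SD far below the gap. They were picked as the widest changes among called genes without overlap, so this follows from the choice.

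Because the unsorted cells were followed from day 1 to day 14 at 37 °C, each gene of the sort could be set beside its course in time. The 2 designs share no library. Of 11445 genes tested in both, 596 were called in both, 569 in the same direction and 27 in opposite directions. In the time course 7.51% of genes were called higher and 5.9% lower on day 14 (limma on log2(CPM + 1), adjusted p below 0.01 and a Log2FC beyond 1 in size). The lists did not all keep their direction. HIF targets were called higher in 23 cases on day 14 and lower in none (median 2.48) and glycolysis genes in 15 and none (1.75), as in the sort. Collagens were called higher in 5 and lower in 10 (-0.82), against a median of 0.95 in the sort. The unfolded protein and ATF4 genes were called higher in 6 and lower in none (0.14), and the interferon-stimulated genes higher in 2 and lower in 9 (-0.54). Cholesterol genes, with 1 call in the sort, were called lower in 21 cases (-1.37).

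**Figure D5:**
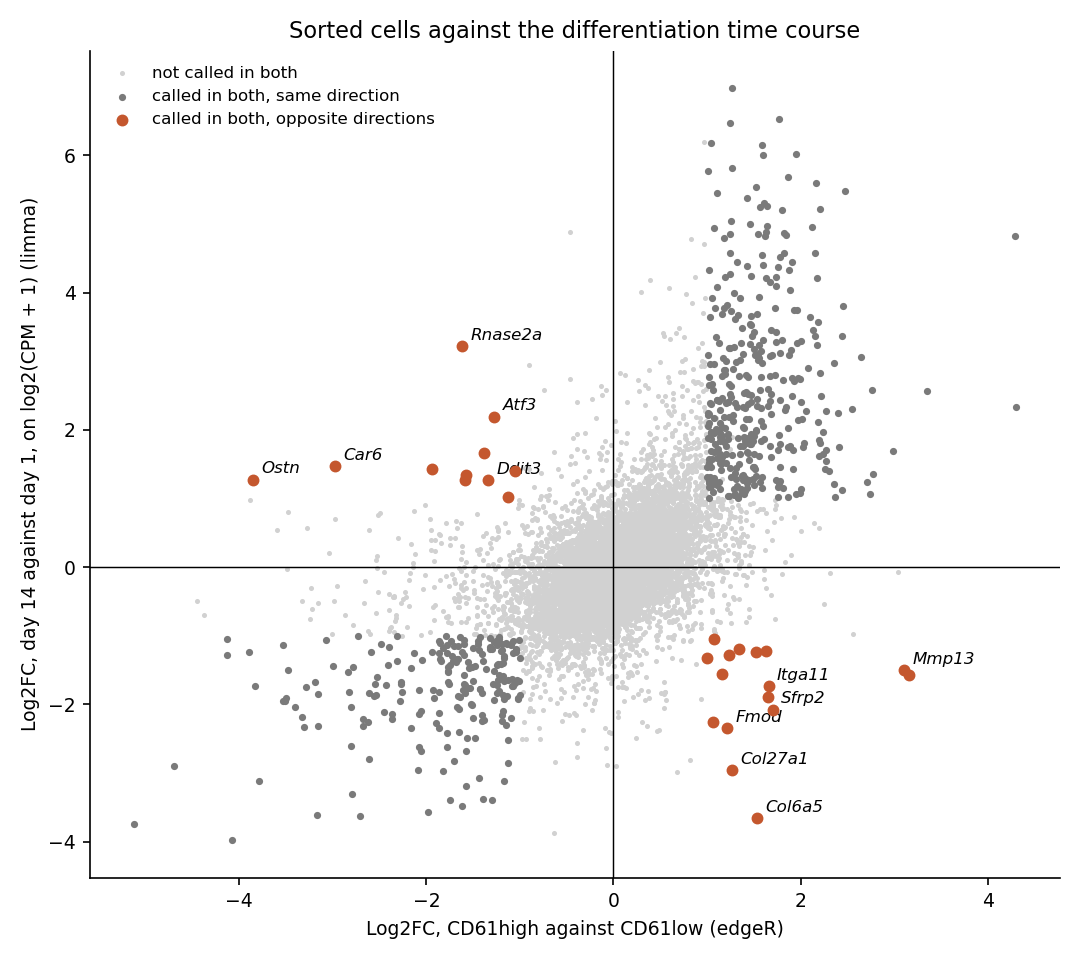
Log2FC of CD61high over CD61low cells on the horizontal axis and of day 14 over day 1 on the vertical axis for genes tested in both, 1 point a gene, with the 27 genes called in opposite directions in orange. Mmp13 and Syt8 stand farthest right among those that fell in time, and Ostn and Car6 farthest left among those that rose.

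Of the 27 opposite genes, 16 were higher in CD61high cells and lower on day 14. Mmp13 rose by a Log2FC of 3.11 in the sort, while its mean in unsorted cells went from 94.2 CPM on day 1 to 6.17, 11.6 and 32.6 CPM on days 7, 10 and 14 (-1.5, adjusted p = 2.1e-16). Itga11 (1.66 in the sort) went from 279.7 CPM on day 1 to 83.6 CPM on day 14 (-1.73), Sfrp2 (1.70) from 235 to 54.8 CPM (-2.08) and Fmod, the collagen-binding proteoglycan fibromodulin (1.21), from 4246 to 831 CPM (-2.35). In these genes day 1 was the highest of the 4 days. Col6a5 (1.53 and -3.66), Col27a1 (1.27 and -2.96), the laminin chain Lamb3 (1.52 and -1.24), Comp (1.63 and -1.23), Megf6 (1.35 and -1.19), the Wnt modulator Dact1 (1.65 and -1.89), the gelatinase Mmp2 (1.16 and -1.56), the TGF-beta binding protein Ltbp1 (1.07 and -2.25), Syt8 (3.16 and -1.57), Plb1 (1.24 and -1.28), Zfp469 (1.08 and -1.05) and Krt14 (1.00 and -1.33) made up the rest. Under library size alone the sort call was lost for 7 of the 16, Fmod (0.91), Mmp2 (0.86), Col27a1 (0.97), Ltbp1 (0.76), Plb1 (0.94), Zfp469 (0.78) and Krt14 (0.70). The sort call of Ltbp1 was also lost at 0.95 without CD61high library 1. That of Krt14 was lost without CD61low library 2 (0.94) or 3 (0.86) or CD61high library 2 (0.94) or 3 (0.98). Krt14 also lost it in DESeq2 (0.99), with size factors of DESeq2 in edgeR (1.00) and with TMM after the filter (0.99). Plb1 lost its call without CD61low library 2 (1.00) or CD61high library 3 (0.95), and with a length offset (1.20). Zfp469 did so without CD61low library 1 (0.98) or 2 (0.93) or CD61high library 1 (0.86).

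The other 11 were lower in CD61high cells and higher on day 14. Ostn, the secreted peptide osteocrin that binds the Npr3 receptor, was at 8.75, 6.57 and 6.88 CPM in CD61low and at 0.411, 0.748 and 0.353 CPM in CD61high libraries (Log2FC -3.85, SE 0.28, adjusted p = 2.6e-06), and its mean in unsorted cells was 0.742 CPM on day 1 and 3.21 CPM on day 14 (1.28, adjusted p = 1.1e-08). Npr3 was lower with it in the sort, but lower on day 14 as well (-3.74). Car6, a secreted carbonic anhydrase, was at 44.1, 47.2 and 45.6 against 5.69, 5.76 and 5.88 CPM (-2.98, SE 0.09), and at 8.31 CPM on day 1 and 24.8 CPM on day 14 (1.47). Of the stress genes, Ddit3 (-1.34 and 1.27), Atf3 (-1.27 and 2.19) and the oxidase Ero1b (-1.94 and 1.43) were in this group. Ddit3 peaked on day 10, at 179.8 CPM against 50.2 CPM on day 1. The remainder were Rnase2a (-1.62 and 3.22), Gch1 (-1.58 and 1.27), Reps2 (-1.58 and 1.34), Sspo (-1.39 and 1.66), Hecw2 (-1.13 and 1.03) and Lonrf3 (-1.05 and 1.4). The sort call was lost for Rnase2a without CD61low library 1 (-1.37) or CD61high library 2 (-1.46) or 3 (-1.63), and for Reps2 without CD61low library 2 (-1.48). That of Lonrf3 was lost without any 1 of the libraries except CD61high library 1 (-1.15 to -0.91). A length offset ended the calls of Lonrf3 (-1.21) and Hecw2 (-1.59), and a block by replicate number that of Lonrf3 (-1.05).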

How the data were processed

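RNA was measured by paired-end sequencing of polyadenylated transcripts. For the sorted cells the deposited values are estimated counts per transcript, with TPM and effective length, made by the authors with Salmon against release 104 of GRCm39. For the time course the deposited values are CPM per gene, for which the authors' notes name STAR and HTSeq. The RNA kits differed between the sorted cells and the time course. Of 116747 transcripts, 115556 were matched to a gene (GENCODE M39), and counts were summed to 35886 genes and rounded to whole numbers. Summed over the 3 libraries of a group, 3 counts came to 0.0478 CPM in CD61low and 0.0583 CPM in CD61high cells.

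Members are the 6 libraries of the sort. They and the 40 gene lists were chosen with earlier results of these data known. TMM factors were computed over all genes (edgeR 4.0.16, R 4.3.3), a gene entered the quasi-likelihood test if every one of the 6 libraries held 5 or more scaled reads of it, and p-values were adjusted by Benjamini-Hochberg over all of them. Genes were called at an adjusted p under 0.01 and a Log2FC beyond 1. The time course, 8 libraries, was tested with limma 3.58.1 (a trend over mean level) on log2(CPM + 1). DESeq2 1.42.0, other scalings, filters, a length offset, a replicate block and leaving out each library were tried, and the code was tested on simulated data.

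Genes named are the markers, the 15 widest changes each way with a mean of at least 5 CPM, up to 4 called members of each list, the opposite genes of sort and time course, the 5 most abundant genes each way outside the filter and the 10 most abundant by TPM. Other list members that are named were chosen after their values were seen. No sample column was left unused. Some members of the lists are not reported here by name.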

Additional observations from a re-analysis of the deposited data

How the results depend on the processing

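Scaling by library size alone gave 316 higher and 963 lower genes in place of 585 and 528 (24.7% of called genes higher in place of 52.6%), and a test against a Log2FC of 1 gave 188 and 213. The cause was not tested. Size factors of DESeq2 in edgeR, TMM after the filter, DESeq2, the filter of edgeR, no filter, a length offset and an adjusted p of 0.05 kept both counts within 1.5 times (535 to 624 higher, 485 to 715 lower), as did leaving out each library (502 to 591 higher, 478 to 539 lower). With the replicate block the counts were 574 and 509. Pairing by number is not shown, since same-numbered libraries deviated with correlations of -0.288, 0.193 and -0.0548, against -0.368 to 0.424 for the others. Among the named genes, calls were lost for 56 in the test against a Log2FC of 1, for 22 under library size alone and for 13 with a length offset. Library size alone reversed the small, uncalled differences of mt-Co1 (-0.0034), Nfatc1 (-0.051), Ctsk (-0.11), Gp1bb (-0.22), mt-Atp6 (-0.20), mt-Co2 (-0.21), mt-Co3 (-0.24), mt-Nd4 (-0.12) and mt-Nd1 (-0.26), and the length offset those of mt-Co3 (-0.0038) and mt-Nd1 (-0.0045). Over the libraries left out in turn, Gp1bb ranged from -0.12 to 0.44, Itga2b from -0.13 to 0.018, mt-Co3 from -0.011 to 0.12 and mt-Nd1 from -0.011 to 0.088. The 27 opposite genes of sort and time course became 43 with a pseudocount of 0.1, 43 with edgeR on whole reads and 8 with the sort tested against a Log2FC of 1, an alternative added after seeing the data, and 27 to 29 with a day 1 or day 14 library left out (sort libraries were not left out for this count). Whole reads were recovered for 100% of the time course values (within 0.01 reads, 27518605 to 34311238 reads a library), and the count test called 1334 genes higher and 956 lower on day 14. Depth limits the 449 genes outside the filter and Dmp1 in CD61low cells.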

Other observations

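By TPM, mitochondrially encoded transcripts led both arms. mt-Atp6 ranked 1 in CD61low cells (20760 TPM) and 2 in CD61high cells (17473 TPM), and mt-Co1 ranked 2 and 1 (19509 and 19132 TPM). Gm29216 (8401 and 10380 TPM), a copy of mitochondrial sequence in the nuclear genome, is uncertain, since its reads can belong to the mitochondrial gene. Gapdh rose from rank 7 to 3, and Ftl1, the ferritin light chain, stood at 7021 and 11371 TPM. Col1a1 and Col1a2 entered the 10 most abundant transcripts of CD61high cells at 12363 and 8905 TPM, in place of mt-Nd4 and mt-Nd1. By the same measure Itgb3 moved from rank 11496 to rank 4526, and Npr3 from rank 10119 to rank 13355.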
